A study of Mus musculus with 13 samples.

Results

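The glycolysis and pentose phosphate genes examined here are 38 of the 43629 genes of a gene expression table of mouse thymus and thymic lymphomas. They were taken by gene symbol from the pathways, with earlier results of these data known, and cover glucose uptake, the steps from hexokinase to pyruvate kinase, lactate production and export, entry of pyruvate into mitochondria, and the oxidative and non-oxidative branches of the pentose phosphate pathway. Each of the 38 occurs once in the table, and all of them passed the filter for low values (10 or more in 3 or more of 13 libraries) and were tested. The libraries came from 5 Atm-/- lymphomas (strain 129S6/SvEv), 5 Rag2c/c p53-/- lymphomas (C57BL/6 and 129S6/SvEv, mixed) and 3 WT thymuses (C57BL/6), 1 mouse per library. Atm-/- mice lack the kinase ATM, which signals DNA double-strand breaks. Rag2c/c mice carry a RAG2 protein without its C terminus, and those used here also lack p53. No treatment, time or age is given in the labels for any group, and each lymphoma is a whole tumor prepared as a cell suspension. The WT thymuses were taken over from another series, so genotype, strain and series cannot be told apart in any comparison with WT thymus. The Y-linked gene Ddx3y was at 0 in all 3 WT thymuses and present in all 5 Rag2c/c p53-/- and 2 of 5 Atm-/- lymphomas. Sex therefore cannot be told apart from these factors in Rag2c/c p53-/- lymphomas against WT thymus either. Both kinds of lymphoma also differ from each other in strain and in the share with Ddx3y. Genotype and strain thus cannot be told apart between the lymphomas, and sex is not balanced there.

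Glycolysis splits a 6-carbon sugar into pyruvate and yields ATP without oxygen. Hexokinase, phosphofructokinase and pyruvate kinase catalyse its irreversible steps. Pyruvate is either reduced to lactate by lactate dehydrogenase and exported, or carried into mitochondria and oxidised by pyruvate dehydrogenase, which the PDK kinases switch off. The pentose phosphate pathway branches off after hexokinase: its oxidative arm makes NADPH, and its non-oxidative arm interconverts sugars and supplies ribose phosphate for nucleotides. Dividing thymocytes and many tumors use much glucose even with oxygen present.

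Several core enzymes, among them Hk2, Pfkl, Pfkm, Aldoa, Tpi1, Pgam1, Ldha, Pgls and Tkt, and the lactate exporter Slc16a3 were higher in both kinds of lymphoma, while Pdk1 and Pdk2 were lower in both. In Atm-/- lymphomas against WT thymus, 11 of the 38 genes were higher and 5 were lower, at a limma adjusted p under 0.05 and at least a 2-fold change. Of all 15872 genes tested, 12.6% were higher and 17% lower by the same rule. In Rag2c/c p53-/- lymphomas against WT thymus, 14 of the 38 were higher and 2 were lower, beside 9.77% and 13.9% of all genes tested. By adjusted p alone, 17 were higher and 5 lower in Atm-/- lymphomas (21% and 23.6% of all genes), and 18 were higher and 3 lower in Rag2c/c p53-/- lymphomas (17.5% and 19.7%). All values of the Atm-/- group lay above all WT thymus values for 17 genes and below for 5 (23.4% and 27.9% of all genes). For the Rag2c/c p53-/- group these were 16 and 3 (19.7% and 24.2%). The median log2 fold change of the 38 was 0.44 against WT thymus for the Atm-/- group and 0.52 for the Rag2c/c p53-/- group, and over all genes tested it was -0.02 in each. Between the lymphomas, 1 of 38 genes differed (Slc16a3), where 3.51% of all genes were higher and 4.33% lower in Atm-/- lymphomas. By adjusted p alone, 1 was higher and 2 lower there (5.13% and 6.48% of all genes), and without overlap 1 was above and 2 below (3.85% and 4.48%). Both comparisons with WT thymus use the same 3 thymuses and are therefore not independent of each other. Without WT thymus 2, the median of the 38 in Rag2c/c p53-/- lymphomas was 0.36.

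**Figure D1:**
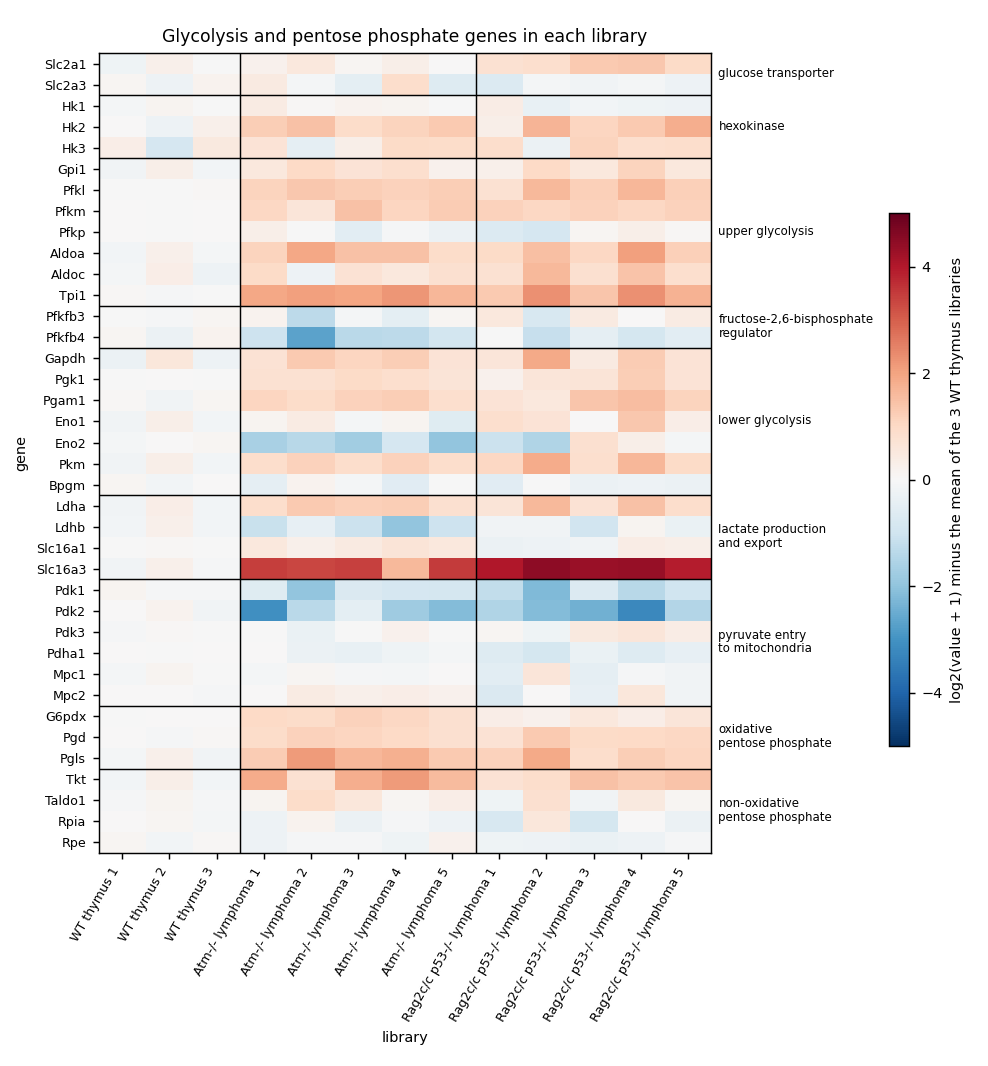
Each row is a gene, grouped by role, and each column a library; the colour is log2(normalized count + 1) minus the mean of the 3 WT thymus libraries, from -5 (blue) to 5 (red). Slc16a3 is the reddest row in both kinds of lymphoma, Tpi1 is red in all 10 lymphomas, and Pdk1 and Pdk2 are blue in all 10.

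Depth differed between libraries, and its part in the values was not tested. Estimated from the spacing of low values, the libraries held 6360000 to 38800000 counted reads, and WT thymus 2 (6660000), Atm-/- lymphoma 2 (9250000) and Rag2c/c p53-/- lymphoma 2 (6360000) were the shallowest of their groups. WT thymus 2 was the highest of the 3 thymuses for 21 of the 38 genes and the lowest for 15. Without these 3 libraries, 12 genes were higher and 3 lower in Atm-/- lymphomas (median 0.33), and 13 were higher and 2 lower in Rag2c/c p53-/- lymphomas (median 0.49). The targeted gene Atm was listed at 208 to 732 in Atm-/- lymphomas, at 439 to 1315 in Rag2c/c p53-/- lymphomas, which overlapped with them, and at 1559 to 2274 in WT thymus. Rag2 was listed at 260 to 790 in Rag2c/c p53-/- and 46 to 1025 in Atm-/- lymphomas, and at 4199 to 5409 in WT thymus. Trp53 was listed at 2018 to 5461, 6853 to 11318 and 4387 to 6341 in the same order. The levels of these 3 genes therefore do not single out the genotypes, and where in the genes the reads lie was not analysed here. All 10 thymocyte markers were present in every group, with summed values of 152485 to 235063 in WT thymus, 78328 to 149967 in Atm-/- and 102155 to 152921 in Rag2c/c p53-/- lymphomas. Of these, Cd8a and Rag1 were lower in Atm-/- and Rag1 in Rag2c/c p53-/- lymphomas, beside 17% and 13.9% of all genes. In such bulk samples, fewer cells of a type and less RNA per cell cannot be told apart.

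Of the members, 5 are shown with 150 bases of the promoter, because they include genes that rose (Ldha, Slc16a3, Hk2, Pfkm) and one that fell (Pdk2). The sequences are from RefSeq on GRCm38.p6, end at the base before the start site and are written 5′ to 3′ on the strand of the gene. They were picked after the values were known. Capitals mark ACGTG or GCGTG on either strand, the core of the sites of hypoxia-inducible factors. This core is also held by every CACGTG, the E-box to which Myc and Max bind.
Ldha: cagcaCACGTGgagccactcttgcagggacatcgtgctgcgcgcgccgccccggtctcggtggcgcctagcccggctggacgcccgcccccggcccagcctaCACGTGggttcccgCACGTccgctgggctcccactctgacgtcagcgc
Slc16a3: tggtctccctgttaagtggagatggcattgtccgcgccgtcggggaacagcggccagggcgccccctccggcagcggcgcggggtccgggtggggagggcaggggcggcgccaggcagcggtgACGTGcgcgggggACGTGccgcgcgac
Hk2: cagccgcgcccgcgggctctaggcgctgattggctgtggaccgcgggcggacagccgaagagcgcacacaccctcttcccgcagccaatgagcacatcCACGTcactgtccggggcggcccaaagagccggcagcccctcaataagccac
Pfkm: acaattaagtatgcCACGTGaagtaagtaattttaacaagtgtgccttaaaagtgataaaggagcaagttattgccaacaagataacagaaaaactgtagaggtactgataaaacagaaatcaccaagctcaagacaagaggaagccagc
Pdk2: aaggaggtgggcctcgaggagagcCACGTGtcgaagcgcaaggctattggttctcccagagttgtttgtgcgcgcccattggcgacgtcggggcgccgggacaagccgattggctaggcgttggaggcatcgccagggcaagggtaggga
Ldha (7:46845654-46845803, + strand) had CACGTG at positions -145 and -48 from the start site. Pfkm (15:98092439-98092588, +) had it at -136 and Pdk2 (11:95041372-95041521, - strand) at -126. Slc16a3 (11:120948917-120949066, +) had ACGTG at -27 and -14, and Hk2 (6:82774455-82774604, -) had the reverse strand's match at -52. Annotated transcripts of Ldha and Slc16a3 also start further upstream, and the last 14 bases of the Slc16a3 window lie in an exon of one of these. Pfkm has 4 start sites in the set used, and Ldha and Pdk2 have 2 each. The most upstream of these was shown, and the other windows of these genes held no CACGTG. Which start site is used in thymus or lymphomas was not tested. Promoter windows of 300 bases, from 250 before to 50 after the start, were found for 37 of the 38 members. CACGTG occurred in a window of 5 of these (13.5%) and of 8.09% of the 27025 genes in the set. These 5 were Ldha, Pfkm and Pdk2, and also Slc16a1 and Pfkfb3, which were called in no comparison. ACGTG or GCGTG occurred in 32 of the 37 members (86.5%) and in 46.7% of all genes. Tpi1, which rose in both kinds of lymphoma, had no match. It was not shown because a coding exon lies in its window. A gene can have several windows. Counted by window, CACGTG was in 9.43% of 53 member windows and 7.15% of all 32851. ACGTG or GCGTG was in 75.5% and 43.8%. The set was not limited to genes tested here, and the differences were not tested. These are matches of letters, and binding was not measured.

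Slc2a1 and Slc2a3 are glucose transporters of the plasma membrane. Slc2a1 was listed at 646, 910 and 746 normalized counts in the 3 WT thymuses. The 5 Atm-/- lymphomas had 884, 1101, 817, 927 and 769, and the 5 Rag2c/c p53-/- lymphomas had 1298, 1371, 1872, 1940 and 1462. All Rag2c/c p53-/- lymphomas thus lay above all other libraries, whereas Atm-/- lymphomas overlapped with WT thymus. Against WT thymus, Slc2a1 was 2.06-fold higher in Rag2c/c p53-/- lymphomas (log2 fold change 1.04, SE 0.18, limma adjusted p = 0.000819). The value fell to 0.93 without WT thymus 1, to 0.98 without Rag2c/c p53-/- lymphoma 3 and to 0.97 without Rag2c/c p53-/- lymphoma 4, just short of 2-fold. Its log2 fold change in Atm-/- lymphomas was 0.23 (SE 0.18, adjusted p = 0.314). Directly compared, Atm-/- lymphomas were below Rag2c/c p53-/- lymphomas by a log2 difference of -0.81 (SE 0.16, adjusted p = 0.00544), under the 2-fold limit of a call. Genes of chromosome 4, where Slc2a1 lies (119108711 to 119137330), had a median log2 difference of -0.335 in the same comparison. Against WT thymus, the median of these genes was 0.37 in Rag2c/c p53-/- and 0.11 in Atm-/- lymphomas. The part of the chromosome in the results for Slc2a1 was not tested. Slc2a3 ranged from 637 to 1818 in lymphomas and from 832 to 1116 in WT thymus, and passed no test. Per kilobase of exon, Slc2a1 made up 60.9% ± 7.39 (SD, n = 3) of the sum of both transporters in WT thymus, 64.3% ± 9.31 (n = 5) in Atm-/- and 79.4% ± 2.75 (n = 5) in Rag2c/c p53-/- lymphomas. Divided by the longest coding transcript, these shares were 48.0%, 51.9% and 69.4%, so the order of both genes in WT thymus depended on the length used.

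Hexokinases phosphorylate glucose, which traps it in the cell. Hk2, the isoenzyme known for its induction in growing and tumor cells, was listed at 355, 296 and 419 in WT thymus. Values were 830, 980, 667, 769 and 868 in Atm-/- lymphomas and 433, 1158, 737, 888 and 1249 in Rag2c/c p53-/- lymphomas. Every lymphoma was above every thymus, although Rag2c/c p53-/- lymphoma 1 (433) was close to WT thymus 3 (419). Hk2 rose 2.31-fold in Atm-/- (log2 1.21, SE 0.29, limma adjusted p = 0.00465) and 2.37-fold in Rag2c/c p53-/- lymphomas (log2 1.24, SE 0.29, adjusted p = 0.00493). Without the shallowest library of each group, the latter was 0.998 on the log2 scale. The gene (chromosome 6, 82725025 to 82774454) shares no 50-base exon window with any other gene. Hk1 was the most abundant isoenzyme and was listed at 3242 to 3866 in WT thymus, 3462 to 4613 in Atm-/- and 2712 to 4491 in Rag2c/c p53-/- lymphomas, and did not pass the test in any comparison. Hk3, known from myeloid cells, was listed at 23 to 59, 30 to 81 and 34 to 92 in the same order and was not called. Myeloid markers moved in the same libraries: their summed value was 4165 to 5252 in WT thymus, 6915 to 12089 in Atm-/- and 4121 to 8763 in Rag2c/c p53-/- lymphomas, and their part in Hk3 was not tested. The share of Hk2 in the 3 hexokinases per kilobase of exon was 12.4% ± 2.42 (SD, n = 3) in WT thymus, 22.7% ± 3.67 (n = 5) in Atm-/- and 27.6% ± 10.5 (n = 5) in Rag2c/c p53-/- lymphomas.

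**Figure D2:**
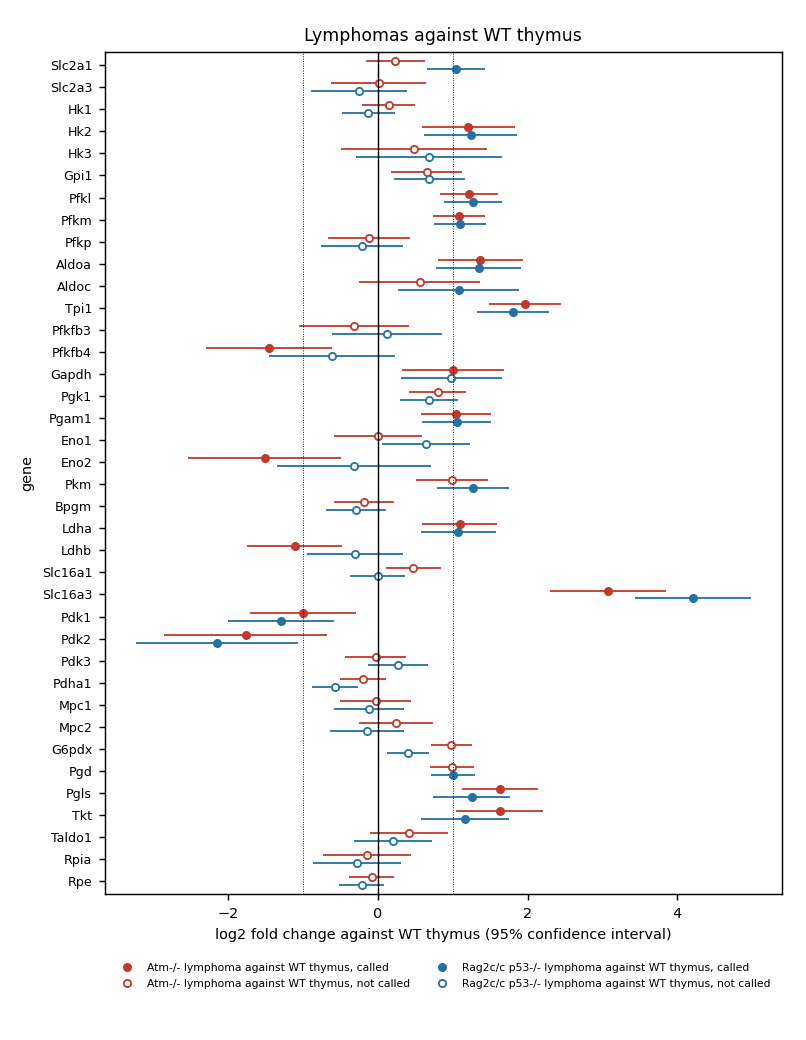
Log2 fold changes of the 38 genes against WT thymus, with 95% confidence intervals, for Atm-/- (red) and Rag2c/c p53-/- lymphomas (blue); filled points were called and dotted lines mark a 2-fold change. Slc16a3 lies farthest to the right at 3.07 and 4.21, and Pdk2 farthest to the left at -1.77 and -2.15.

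From glucose phosphate to the triose phosphates, 4 of 7 enzyme genes were higher in Atm-/- and 5 of 7 in Rag2c/c p53-/- lymphomas. Over all genes, 12.6% and 9.77% were higher. None of the 7 was lower, beside 17% and 13.9% of all genes. Tpi1, triosephosphate isomerase, changed most among them. It was listed at 2225, 2066 and 2135 in WT thymus. The 5 Atm-/- lymphomas had 8286, 8897, 8378, 9929 and 6690, and Rag2c/c p53-/- lymphomas had 5358, 10378, 5637, 10540 and 7093. The lowest lymphoma (5358) was far above the highest thymus (2225). Tpi1 was 3.91-fold higher in Atm-/- (log2 1.97, SE 0.22, limma adjusted p = 2.93e-05) and 3.49-fold higher in Rag2c/c p53-/- lymphomas (log2 1.80, SE 0.22, adjusted p = 8.36e-05). It lies on chromosome 6 from 124810586 to 124814296, and 1 tested gene, Spsb2, overlaps it on the other strand.

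Phosphofructokinase commits sugar to glycolysis and has a liver-type, a muscle-type and a platelet-type subunit. The liver-type gene Pfkl was listed at 1319, 1316 and 1380 in WT thymus. Values in Atm-/- lymphomas were 2894, 3405, 3145, 2950 and 3182, and Rag2c/c p53-/- lymphomas had 2257, 4090, 3022, 4216 and 3049. It was higher in both (log2 1.22 and 1.28, SE 0.18 each, limma adjusted p = 0.000178 and 0.000199), with no overlap with WT thymus. Pfkm, the muscle type, was listed at 1158, 1124 and 1169 in WT thymus. Its values were 2339, 1754, 3164, 2442 and 2757 in Atm-/- and 2548, 2327, 2529, 2334 and 2582 in Rag2c/c p53-/- lymphomas. Pfkm rose by log2 1.09 (SE 0.16, adjusted p = 0.000191) and 1.097 (SE 0.16, adjusted p = 0.000269), again without overlap, and by 0.99 in Atm-/- lymphomas without Atm-/- lymphoma 3. Genes of chromosome 15, which holds Pfkm, had a median log2 fold change of 0.39 in both comparisons, and its part in the result was not tested. Pfkp, the platelet type, passed no test. It was listed at 2946, 2839 and 2940 in WT thymus, at 3609, 2861, 2013, 2817 and 2363 in Atm-/- and at 1824, 1635, 3116, 3598 and 3009 in Rag2c/c p53-/- lymphomas. The groups overlapped, with log2 fold changes of -0.12 (95% confidence interval -0.67 to 0.43) and -0.21 (-0.76 to 0.34). Per kilobase of exon, Pfkp made up 28.5% ± 0.258 (SD, n = 3) of the 3 subunits in WT thymus, 14.6% ± 3.88 (n = 5) in Atm-/- and 13.6% ± 3.62 (n = 5) in Rag2c/c p53-/- lymphomas. Divided by the longest coding transcript instead, its share was 48.1%, 28.0% and 26.3%, so Pfkp led in WT thymus on that scale and Pfkm on the other.

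Aldolase splits fructose bisphosphate. Aldoa was listed at 3861, 5022 and 3908 in WT thymus, at 9073, 16006, 11587, 11674 and 7944 in Atm-/- and at 8146, 12013, 8637, 17701 and 9593 in Rag2c/c p53-/- lymphomas. All lymphomas were above all thymuses, by log2 1.37 (SE 0.26, limma adjusted p = 0.0011) and 1.34 (SE 0.26, adjusted p = 0.00164). Aldoc, the brain-type enzyme, was rare: 23, 32 and 21 in WT thymus, 50, 21, 42, 36 and 44 in Atm-/- and 43, 78, 44, 68 and 45 in Rag2c/c p53-/- lymphomas. It was called higher in the latter (log2 1.08, SE 0.38, adjusted p = 0.0371), but not without WT thymus 1 (adjusted p = 0.119), WT thymus 3 (0.141), Rag2c/c p53-/- lymphoma 2 (0.0659) or Rag2c/c p53-/- lymphoma 4 (0.0711). Aldoa made up at least 99.4% of aldolase per kilobase of exon in every library. Gpi1, which isomerises glucose phosphate, was listed at 6680 to 9184 in WT thymus, 8624 to 14987 in Atm-/- and 8985 to 16131 in Rag2c/c p53-/- lymphomas. It passed the adjusted p in both comparisons (0.0275 and 0.0263) at log2 0.66 and 0.69, short of 2-fold, with overlap.

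Pfkfb3 and Pfkfb4 make and break fructose-2,6-bisphosphate, the activator of phosphofructokinase. Pfkfb4 was listed at 238, 179 and 252 in WT thymus. It had 107, 34, 85, 88 and 117 in Atm-/- lymphomas, all below WT thymus, and 216, 98, 161, 121 and 151 in Rag2c/c p53-/- lymphomas, which overlapped with it. Pfkfb4 fell by 1.46 on the log2 scale in Atm-/- lymphomas (SE 0.39, limma adjusted p = 0.00899). Its log2 fold change in Rag2c/c p53-/- lymphomas was -0.61 (adjusted p = 0.237), and between the lymphomas -0.85 (SE 0.34, adjusted p = 0.128). Pfkfb3 was listed at 1862, 1826 and 2021 in WT thymus, at 2175, 772, 1796, 1350 and 2055 in Atm-/- and at 2732, 1087, 2614, 1908 and 2520 in Rag2c/c p53-/- lymphomas. The groups overlapped, and its lowest values were in the shallowest library of each lymphoma group. Its log2 fold changes were -0.31 (95% confidence interval -1.05 to 0.42) and 0.12 (-0.62 to 0.85).

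Among the 7 genes from glyceraldehyde phosphate to pyruvate, 2 were higher and 1 lower in Atm-/- lymphomas, and 2 were higher in Rag2c/c p53-/- lymphomas. Over all genes, 12.6% were higher and 17% lower in the first and 9.77% higher in the second. Pgam1, phosphoglycerate mutase, was listed at 705, 604 and 735 in WT thymus, at 1446, 1274, 1504, 1604 and 1203 in Atm-/- and at 1095, 990, 1757, 2006 and 1455 in Rag2c/c p53-/- lymphomas. No lymphoma reached down to the thymuses, and the log2 fold changes were 1.04 (SE 0.22, limma adjusted p = 0.00185) and 1.05 (SE 0.22, adjusted p = 0.00228). They fell short of 2-fold without WT thymus 2 (0.96 and 0.97), without Atm-/- lymphoma 4 (0.99) and without Rag2c/c p53-/- lymphomas 3 or 4 (0.97 or 0.93). Pkm, pyruvate kinase of most tissues and tumors, was listed at 9787, 13712 and 10133 in WT thymus. In Atm-/- lymphomas they were 20298, 24921, 20534, 24388 and 20634, and Rag2c/c p53-/- lymphomas had 22958, 40129, 19955, 34680 and 21451. All lymphomas exceeded all thymuses. Pkm was 2.41-fold higher in Rag2c/c p53-/- lymphomas (log2 1.27, SE 0.22, adjusted p = 0.000852). In Atm-/- lymphomas it was 1.99-fold higher (log2 0.99, SE 0.22, adjusted p = 0.00314), just under the limit of a call, and over it without any of WT thymus 2 (1.15), Atm-/- lymphoma 1 (1.02), 3 (1.02) or 5 (1.02). The table has 1 row for Pkm and does not separate its splice forms.

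Gapdh, glyceraldehyde phosphate dehydrogenase, lay at the limit of a call. Its values were 8363, 15317 and 8530 in WT thymus, 17039, 25282, 21783, 24448 and 16344 in Atm-/- and 15787, 38505, 13986, 24964 and 16496 in Rag2c/c p53-/- lymphomas. WT thymus 2 stood apart from the other thymuses and overlapped with Rag2c/c p53-/- lymphomas. The log2 fold change was 1.003 (SE 0.31, limma adjusted p = 0.0197) in Atm-/- and 0.98 (SE 0.31, adjusted p = 0.0255) in Rag2c/c p53-/- lymphomas. The first dropped under 2-fold with recomputed size factors (0.99) and without WT thymus 1 (0.85), WT thymus 3 (0.87) or Atm-/- lymphoma 2 (0.93), 3 (0.98) or 4 (0.94). It also missed the limma adjusted p without WT thymus 1 (0.0927) or WT thymus 3 (0.0913). The second rose past 2-fold without WT thymus 2 (1.27) or Rag2c/c p53-/- lymphoma 1 (1.07), 3 (1.12) or 5 (1.06). Of the 50-base windows in the exons of Gapdh, 25.1% also occur in other genes, and 89 genes share at least 100 windows with it, which makes its counts uncertain. The same holds for Pgk1 (53.9% of windows), Pgam1 (36.2%), Mpc1 (26.3%), Eno1 (26%), Pkm (25.8%) and Ldhb (21%).

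Pgk1, which makes ATP from bisphosphoglycerate, was listed at 2575 to 2638 in WT thymus, 4029 to 5050 in Atm-/- and 3037 to 6135 in Rag2c/c p53-/- lymphomas. It passed the adjusted p in both comparisons (0.00305 and 0.0093) at log2 0.80 and 0.68, with no overlap with WT thymus but under 2-fold. Bpgm, which makes the regulator of haemoglobin bisphosphoglycerate, ranged from 726 to 1233 over all libraries and passed no test. Eno1, the enolase of most tissues, was listed at 5330 to 7394 in WT thymus, 3966 to 8034 in Atm-/- and 6148 to 15102 in Rag2c/c p53-/- lymphomas, and was not called (log2 -0.004 and 0.64). Its copy Eno1b was listed at 21, 81 and 18 in WT thymus, at 1057, 1676, 941, 1218 and 620 in Atm-/- and at 33, 1611, 988, 983 and 761 in Rag2c/c p53-/- lymphomas. Eno1 shares 25.3% of its windows with Eno1b, so reads of both are uncertain, and the part of this in the values was not tested. The sum of Eno1 and Eno1b had log2 fold changes of 0.22 (SE 0.27, limma adjusted p = 0.516) and 0.77 (SE 0.27, adjusted p = 0.0364). Eno2, the neuronal enolase, was listed at 117, 130 and 134 in WT thymus, at 40, 48, 37, 70 and 32 in Atm-/- and at 60, 44, 223, 154 and 117 in Rag2c/c p53-/- lymphomas. All Atm-/- lymphomas were below WT thymus (log2 -1.51, SE 0.48, adjusted p = 0.0202), while Rag2c/c p53-/- lymphomas lay on both sides of it. The call was lost without WT thymus 1 (adjusted p = 0.054), 2 (0.059) or 3 (0.0697). Between the lymphomas the log2 difference was -1.20 (SE 0.41, adjusted p = 0.0792), and it was called without Rag2c/c p53-/- lymphoma 2 (-1.49, adjusted p = 0.0217).

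**Figure D3:**
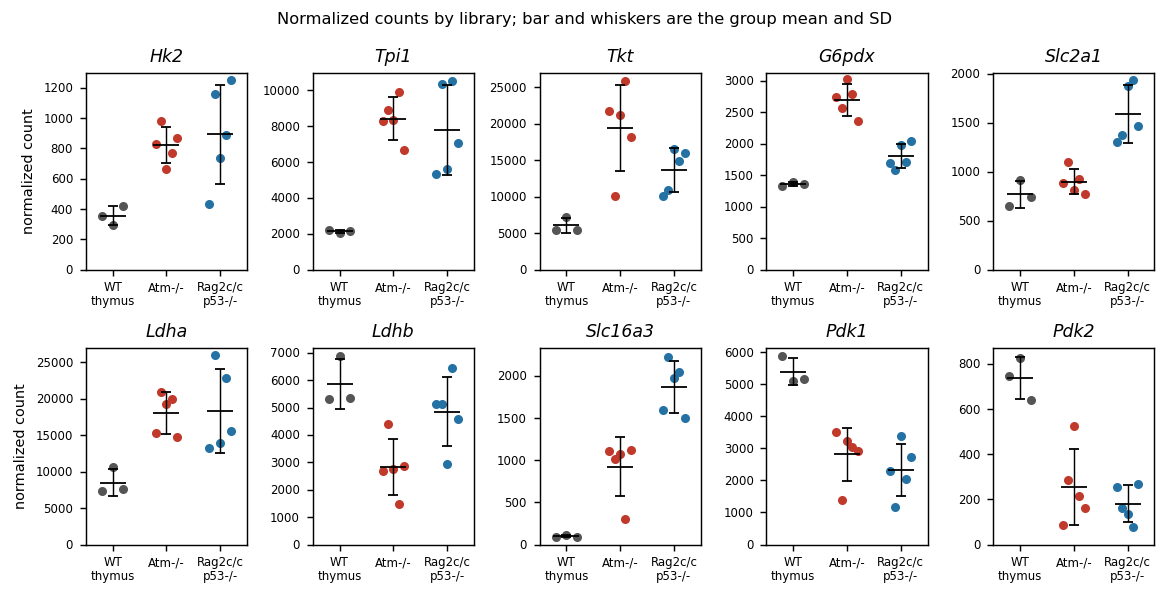
Normalized counts of 10 genes in each of the 13 libraries (points), with the mean and SD of each group (bar and whiskers), on linear axes that start at 0. Tpi1, Tkt, Ldha and Slc16a3 are higher in all 10 lymphomas than in all 3 thymuses, Pdk1 and Pdk2 are lower in all 10, and G6pdx is higher in all 5 Atm-/- lymphomas than in the other libraries.

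Lactate dehydrogenase is built from Ldha subunits, which favour lactate formation, and Ldhb subunits, which favour its oxidation. Ldha was listed at 7333, 10613 and 7589 in WT thymus, at 15288, 21009, 19306, 19937 and 14738 in Atm-/- and at 13289, 25998, 13966, 22934 and 15543 in Rag2c/c p53-/- lymphomas. All lymphomas were above all thymuses. The log2 fold change was 1.09 (SE 0.23, limma adjusted p = 0.00229) in Atm-/- and 1.07 (SE 0.23, adjusted p = 0.00326) in Rag2c/c p53-/- lymphomas. Both fell just short of 2-fold without WT thymus 1 (0.99 and 0.98), and the second also without Rag2c/c p53-/- lymphoma 2 (0.94) or 4 (0.98). Ldhb was listed at 5311, 6897 and 5339 in WT thymus. Atm-/- lymphomas had 2689, 4391, 2761, 1491 and 2863, all lower than WT thymus, and Rag2c/c p53-/- lymphomas had 5121, 5120, 2953, 6445 and 4568, which overlapped with it. Ldhb fell by 1.11 on the log2 scale in Atm-/- lymphomas (SE 0.30, adjusted p = 0.00849), and the value was -0.99 without WT thymus 2 and -0.90 without Atm-/- lymphoma 4. In Rag2c/c p53-/- lymphomas it was -0.31 (adjusted p = 0.438), and the difference between the lymphomas was -0.81 (SE 0.26, adjusted p = 0.0577).

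The balance of the subunits differed between thymus and lymphomas. Per kilobase of exon, Ldha made up 39.6% to 42.2% of lactate dehydrogenase in the 3 thymuses, 69.4% to 86.4% in Atm-/- and 55.2% to 70.7% in Rag2c/c p53-/- lymphomas. No lymphoma had a share as low as any thymus. Divided by the longest coding transcript, the share was 49.8% to 52.5%, 77.5% to 90.6% and 65.1% to 78.5%, so on that scale both subunits were about level in WT thymus. By all exon bases, Ldhb had the highest level per kilobase of the 38 genes in WT thymus (3725 ± 578, SD, n = 3), ahead of Gapdh (2598 ± 960) and Ldha (2572 ± 551), and the ranges of Ldhb and Gapdh overlapped. By the longest coding transcript, the means there were 4690 for Ldha and 4485 for Ldhb, so their order depended on the length used. By exon bases, Ldhb in Atm-/- lymphomas ranked 10th of 38 (1808 ± 657, n = 5), and Ldha, Gapdh and Pkm led, with overlapping ranges. In Rag2c/c p53-/- lymphomas it was the 5th (3084 ± 804, n = 5), after Pkm, Ldha, Gapdh and Aldoa.

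**Figure D4:**
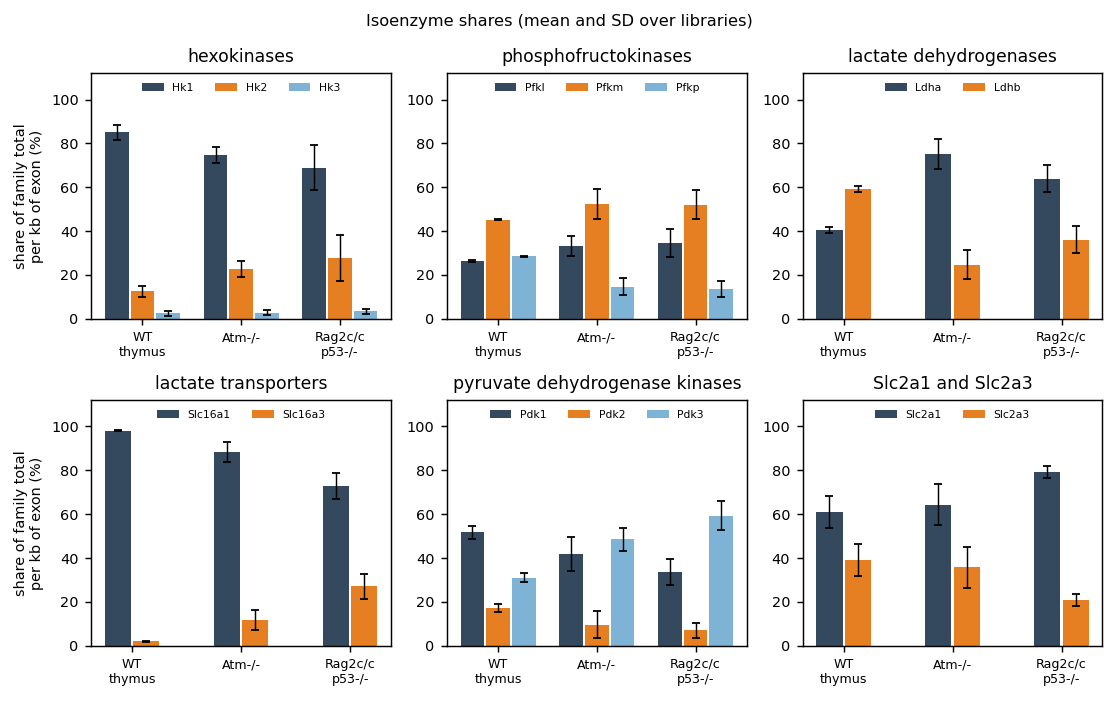
Share of each isoenzyme in its family's summed value per kilobase of exon, as mean (bar) and SD (whisker) over 3 WT thymus, 5 Atm-/- and 5 Rag2c/c p53-/- libraries. Ldha exceeds Ldhb in both lymphomas and not in WT thymus, and Slc16a3 goes from 1.92% to 11.6% and 27.1% of the lactate transporters.

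Slc16a3 showed the largest change of the 38 genes. It encodes the lactate exporter MCT4, which is typical of strongly glycolytic cells, and lies on chromosome 11 from 120948480 to 120960868. Its values were 88, 117 and 94 in WT thymus. Atm-/- lymphomas had 1104, 1012, 1079, 306 and 1119, and Rag2c/c p53-/- lymphomas had 1601, 2222, 1978, 2047 and 1504. The 3 groups did not overlap, and Atm-/- lymphoma 4 was far below the other Atm-/- lymphomas. Against WT thymus, Slc16a3 rose 8.40-fold in Atm-/- (log2 3.07, SE 0.36, limma adjusted p = 3.47e-05) and 18.5-fold in Rag2c/c p53-/- lymphomas (log2 4.21, SE 0.36, adjusted p = 7.21e-06). Both calls held under every alternative tried. Atm-/- lymphomas were lower than Rag2c/c p53-/- lymphomas by a log2 difference of -1.14 (SE 0.31, adjusted p = 0.0314). This call was lost when only these 10 libraries were fitted (adjusted p = 0.0632) and without Rag2c/c p53-/- lymphoma 2 (0.0548), 3 (0.0582) or 4 (0.061) or the shallowest library of each group (0.0782), and the value was -0.78 without Atm-/- lymphoma 4. Slc16a1, which encodes MCT1 and carries lactate in either direction, was listed at 4119 to 4408 in WT thymus, 5019 to 6567 in Atm-/- and 3433 to 5478 in Rag2c/c p53-/- lymphomas. It passed the adjusted p in Atm-/- lymphomas (0.0367, log2 0.47) and not in Rag2c/c p53-/- lymphomas (0.983, log2 -0.005), and the difference between the lymphomas was 0.48 (SE 0.15, adjusted p = 0.051). Slc16a1 remained the more abundant transporter per kilobase of exon in every library. The share of Slc16a3 was 1.73% to 2.16% in WT thymus, 3.73% to 14.4% in Atm-/- and 19.3% to 34.2% in Rag2c/c p53-/- lymphomas.

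At the entry of pyruvate into mitochondria, 2 of 6 genes were lower in both comparisons, beside 17% and 13.9% of all genes, and none was higher. Pdk1 and Pdk2 encode kinases that inactivate pyruvate dehydrogenase. Pdk2 was listed at 746, 828 and 642 in WT thymus, at 88, 285, 526, 214 and 162 in Atm-/- and at 257, 162, 137, 78 and 269 in Rag2c/c p53-/- lymphomas. All 10 lymphomas were below all 3 thymuses. Pdk2 fell by 1.77 on the log2 scale in Atm-/- (SE 0.51, limma adjusted p = 0.0123) and by 2.15 in Rag2c/c p53-/- lymphomas (SE 0.51, adjusted p = 0.00506). Without the shallowest library of each group, the first had an adjusted p of 0.0518 at a log2 fold change of -1.78. Pdk1, a known target of hypoxia-inducible factors, was listed at 5885, 5107 and 5175 in WT thymus. Its values were 3495, 1379, 3215, 3036 and 2930 in Atm-/- and 2306, 1162, 3374, 2058 and 2725 in Rag2c/c p53-/- lymphomas, again without overlap. Pdk1 fell by 1.29 on the log2 scale in Rag2c/c p53-/- lymphomas (SE 0.33, adjusted p = 0.0081) and 2.01-fold in Atm-/- lymphomas (log2 -1.005, SE 0.33, adjusted p = 0.0246). The latter was -0.77 without Atm-/- lymphoma 2, the shallowest of its group, and missed the adjusted p without WT thymus 1 (0.0854), 2 (0.0572) or 3 (0.0643). The exons of Pdk1, Pdk2 and Pdk3 share no window with other genes.

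Pdk3, the third kinase, was listed at 1022 to 1104 in WT thymus, 847 to 1239 in Atm-/- and 905 to 1634 in Rag2c/c p53-/- lymphomas, and passed no test. Its share of the 3 kinases per kilobase of exon was 31.0% ± 1.98 (SD, n = 3) in WT thymus, 48.6% ± 5.26 (n = 5) in Atm-/- and 59.3% ± 6.61 (n = 5) in Rag2c/c p53-/- lymphomas. Pdk1 led in WT thymus with 51.6% ± 2.87. Pdha1, a subunit of pyruvate dehydrogenase itself, was listed at 4775 to 4830 in WT thymus, 3696 to 4889 in Atm-/- and 2631 to 3830 in Rag2c/c p53-/- lymphomas. The last were all below WT thymus (log2 -0.58, SE 0.14, limma adjusted p = 0.00664), which is less than 2-fold. Pdha1 is X-linked, the X chromosome had a median of -0.42 in this comparison, and Ddx3y was present in these 5 lymphomas and at 0 in WT thymus; their part in the result was not tested. Mpc1 and Mpc2, which form the mitochondrial pyruvate carrier, ranged from 516 to 1142 and from 483 to 1191 over all libraries and passed no test.

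All 3 genes of the oxidative pentose phosphate branch were higher by adjusted p in both comparisons with WT thymus, beside 21% and 17.5% of all genes. G6pdx, the rate-limiting dehydrogenase that forms NADPH, was listed at 1329, 1394 and 1365 in WT thymus. The 5 Atm-/- lymphomas had 2747, 2562, 3037, 2785 and 2362, and Rag2c/c p53-/- lymphomas had 1700, 1591, 1977, 1711 and 2050. The 3 groups did not overlap. The log2 fold change was 0.98 (SE 0.13, limma adjusted p = 7.73e-05) in Atm-/- and 0.40 (SE 0.13, adjusted p = 0.0268) in Rag2c/c p53-/- lymphomas, both under 2-fold; the first was 1.03 without Atm-/- lymphoma 5. Atm-/- lymphomas had more than Rag2c/c p53-/- lymphomas (log2 0.58, SE 0.11, adjusted p = 0.00501), also short of a call. G6pdx is X-linked (74409483 to 74429194). The tested gene Ikbkg overlaps it on the other strand, and 16.9% of the G6pdx windows occur in other genes, so part of its reads is uncertain. Genes of the X chromosome had a median log2 difference of 0.24 between the lymphomas, and medians of -0.22 and -0.42 in Atm-/- and Rag2c/c p53-/- lymphomas against WT thymus. The 2 Atm-/- lymphomas with Ddx3y, 4 and 5, had G6pdx values of 2785 and 2362, and the others had 2562 to 3037. The part of sex and of the X chromosome in the result was not tested.

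Pgls, the lactonase of the branch, was listed at 1989, 2596 and 1920 in WT thymus, at 5128, 9367, 6771, 7414 and 5346 in Atm-/- and at 4808, 7927, 3969, 5094 and 4543 in Rag2c/c p53-/- lymphomas. It was 3.09-fold higher in Atm-/- (log2 1.63, SE 0.24, limma adjusted p = 0.000159) and 2.38-fold higher in Rag2c/c p53-/- lymphomas (log2 1.25, SE 0.24, adjusted p = 0.00133), with no overlap. The gene Fam129c overlaps it on the same strand, so part of its reads is uncertain. Pgd, which forms ribulose phosphate and NADPH, was listed at 2224, 2147 and 2296 in WT thymus, at 4250, 4921, 4716, 4437 and 3871 in Atm-/- and at 3685, 5444, 4340, 4492 and 4555 in Rag2c/c p53-/- lymphomas. All lymphomas were above all thymuses. Pgd was called in Rag2c/c p53-/- lymphomas (log2 1.01, SE 0.14, adjusted p = 0.000149), but had 0.98 without WT thymus 2 and 0.94 without Rag2c/c p53-/- lymphoma 2. In Atm-/- lymphomas its log2 fold change was 0.99 (SE 0.14, adjusted p = 0.000104), under the limit by as little, and over it without WT thymus 3 (1.02) or Atm-/- lymphoma 1 (1.01) or 5 (1.04). Pgd lies on chromosome 4, whose genes had medians of 0.37 in Rag2c/c p53-/- and 0.11 in Atm-/- lymphomas against WT thymus. The part of the chromosome in the result was not tested.

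In the non-oxidative branch, transketolase (Tkt) was the member that changed. Its values were 5442, 7260 and 5461 in WT thymus. Among Atm-/- lymphomas they were 21755, 10052, 21158, 25898 and 18151, and Rag2c/c p53-/- lymphomas had 10033, 10973, 16592, 14929 and 15947. All lymphomas were above all thymuses, and Atm-/- lymphoma 2, the shallowest of its group, was the lowest of that group. Tkt rose 3.09-fold in Atm-/- (log2 1.63, SE 0.27, limma adjusted p = 0.000429) and 2.24-fold in Rag2c/c p53-/- lymphomas (log2 1.16, SE 0.27, adjusted p = 0.00505). The lymphomas did not differ from each other beyond the test (log2 0.46, 95% confidence interval -0.04 to 0.97, adjusted p = 0.234). On chromosome 14, where Tkt lies (30548359 to 30574722), the median log2 fold change was -0.37 for the Atm-/- and -0.05 for the Rag2c/c p53-/- group, and its part in the result was not tested. Taldo1, transaldolase, was listed at 2996 to 3408 in WT thymus, 3401 to 5944 in Atm-/- and 2729 to 5498 in Rag2c/c p53-/- lymphomas. Rpia ranged from 660 to 1807 and Rpe from 1030 to 1488 over all libraries. These 3, which isomerise or exchange sugar phosphates, passed no test in any comparison.

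Further genes of the same pathways were taken from a list of 61, of which 46 were tested. Of these, 4 were higher and 6 lower in Atm-/- lymphomas (12.6% and 17% of all genes), in Rag2c/c p53-/- lymphomas 4 were higher and 2 lower (9.77% and 13.9%), and the medians were 0.06 and 0.01 on the log2 scale. Higher in both were Slc2a8, a sugar transporter of internal membranes (log2 1.603 and 1.39), Ldhd, a dehydrogenase of D-lactate (1.52 and 2.20), and G6pc3, a glucose phosphatase (1.34 and 1.05). Pfkfb2, of the same family as Pfkfb3, was lower in both (-1.45 and -1.68). Fbp1, which reverses the phosphofructokinase step, was listed at 31, 19 and 21 in WT thymus, 1573, 1192, 178, 3943 and 336 in Atm-/- and 111, 226, 64, 50 and 88 in Rag2c/c p53-/- lymphomas. It was higher in Atm-/- lymphomas than in WT thymus (log2 5.14, SE 0.81, limma adjusted p = 0.000279) and than in Rag2c/c p53-/- lymphomas (3.17, SE 0.70, adjusted p = 0.011). Slc2a6, Galm, Pygb and Shpk were lower in Atm-/- lymphomas (-1.03 to -1.62), and Slc2a9 was lower (-1.23) and Pck1 higher (2.26) in Rag2c/c p53-/- lymphomas. Between the lymphomas, Tktl1 was higher (2.59) and Galm lower (-1.16) in Atm-/- lymphomas.

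Of 21 regulators of glycolysis, 2 were higher and 1 lower in Atm-/- lymphomas, beside 12.6% and 17% of all genes. In Rag2c/c p53-/- lymphomas 3 were higher and 1 lower, beside 9.77% and 13.9%. Apart from the 3 higher in Rag2c/c p53-/- lymphomas, these counts are below the shares over all genes. Myc, a transcription factor known to act on many glycolysis genes, was listed at 2495, 2985 and 2500 in WT thymus, at 8632, 8817, 6681, 11860 and 5936 in Atm-/- and at 5968, 6272, 7740, 8055 and 6804 in Rag2c/c p53-/- lymphomas. It was higher in both, by log2 1.62 (SE 0.20, limma adjusted p = 4.9e-05) and 1.38 (SE 0.20, adjusted p = 0.000233), and all lymphomas lay above all thymuses. Egln3, an oxygen sensor that is itself induced by hypoxia, was listed at 975 to 1023 in WT thymus, 2758 to 5283 in Atm-/- and 3016 to 9868 in Rag2c/c p53-/- lymphomas, and was higher in both (1.91 and 2.22). Mycn was lower in both, with 68 to 93 in WT thymus, 0 to 3 in Atm-/- and 0 to 35 in Rag2c/c p53-/- lymphomas, and Prkaa2 was higher in Rag2c/c p53-/- lymphomas (3.05). Hif1a was listed at 3733 to 3956, 1512 to 3261 and 1459 to 3655 in the same order and was not called; it is named here although its values were seen first. Among 12 hypoxia response genes outside glycolysis, 3 were higher and 1 lower in Atm-/-, beside 12.6% and 17% of all genes, and 3 were higher in Rag2c/c p53-/- lymphomas, beside 9.77%. Vegfa was higher in both (2.23 and 2.25). Adm and P4ha2 were higher (4.39 and 2.03) and Car9 lower (-2.68) in Atm-/- lymphomas, and Bnip3 and Ddit4 were higher (1.61 and 1.33) in Rag2c/c p53-/- lymphomas.

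Markers of other cells also differed between the groups. Over all genes, 12.6% were higher and 17% lower in Atm-/- lymphomas, and 9.77% and 13.9% in Rag2c/c p53-/- lymphomas. Of 7 markers of dividing cells, 1 was higher in Atm-/- lymphomas (Aurkb) and 2 in Rag2c/c p53-/- lymphomas (Aurkb and Birc5), with summed values of 36619 to 43108 in WT thymus, 34337 to 67173 and 42623 to 54517. Fibroblast markers were higher in both (5 and 4 of 6), with sums of 437 to 478 in WT thymus, 4430 to 19742 in Atm-/- and 2074 to 3967 in Rag2c/c p53-/- lymphomas. Myeloid markers were higher for 4 and 2 of 6. B cell markers were lower (4 and 5 of 6), as were those of thymic epithelium (3 and 4 of 6), with Psmb11 at 36 to 122 in WT thymus and at 0 or 1 in lymphomas. Of 6 endothelial markers 3 were tested, and 0 and 2 of these were lower. Of 8 erythroid markers 6 were tested, and 1 was higher in each comparison. The part of these cells in the values of the 38 genes was not tested.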

How the data were processed

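RNA was measured in 13 libraries of polyadenylated RNA from single-cell suspensions, with a stranded mRNA kit. Per the labels, the submitters' processing notes name bcl2fastq 1.8.3, STAR 2.4.0g1, Picard and DESeq2 1.6.3 and the build mm10 (GRCm38); whether counting used the strand is not given in the sources used here. The deposited values are a score made by the authors: gene counts divided by a size factor and rounded to whole numbers, so raw counts and exact depth are lost. Depth was estimated from the spacing of low values; 1 read is worth 0.51 to 3.38 units, and column totals are 19788898 to 21591289. The deposited table also has fold changes, p-values and dispersions of the authors' comparisons, which were not used.

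After a filter for low values (10 or more in 3 or more libraries), 15872 of 43629 genes were fitted with limma 3.58.1 (R 4.3.3) on log2(value + 1), 3 groups, mean-variance trend and robust moderation, after tests on simulated data. Fold changes on this scale understate the change of low genes. Genes were called at a Benjamini-Hochberg adjusted p under 0.05 over all tested genes, a change of 1 or more on the log2 scale in either direction, and a group mean reaching 10. Labels state that lymphomas are from different mice. The p-values set each group difference against the spread between these samples, which was estimated over all 3 groups. No batch term could be fitted. Isoenzyme shares are values per kilobase of exon and have no test.

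The members and gene lists were chosen with earlier results of these data known. Per-library values are given for genes called in any comparison and for Hk2, Pfkp, Pfkfb3, Pkm, Ldha, Slc2a1, G6pdx and Pdk1. From other lists, at most the 6 called genes with the largest change per comparison are named. A further called gene of these lists is counted but not reported here by name. Alternatives changed scaling, pseudocount (0.5, 5), filter, moderation, threshold and the libraries fitted. Leaving out the shallowest libraries, adding Eno1b and the coding-transcript lengths were chosen after seeing the data.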

Additional observations from a re-analysis of the deposited data

Results flagged for a closer look

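A single library stood apart from the other 4 of its group in 4 of 76 pairs of gene and group examined, and chance flags about 1 in 20. Slc16a3 was at 306 in Atm-/- lymphoma 4, where the nearest other Atm-/- lymphoma had 1012. Pdk1 was at 1379 in Atm-/- lymphoma 2, the shallowest of its group, and the nearest had 2930. Hk1 was at 4491 in Rag2c/c p53-/- lymphoma 1, and the nearest had 3152. Pgls was at 7927 in Rag2c/c p53-/- lymphoma 2, the shallowest of its group, and the nearest had 5094.

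For 3 genes the change against WT thymus differed between the lymphomas by the direct limma test. Slc2a1 had a log2 difference of -0.811 (Atm-/- minus Rag2c/c p53-/-), Slc16a3 of -1.142 and G6pdx of 0.581. All 5 Atm-/- libraries lay below all 5 Rag2c/c p53-/- libraries for Slc2a1 and Slc16a3 and above them for G6pdx.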

How the results depend on the processing

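No result changed sign among those with a call. Of the 1587 comparisons of a value with an alternative, 1515 kept their side of the threshold, 48 lost a call and 24 gained one. Many of the 1587 had no call to lose, since 16, 16 and 1 genes were called. In some, the library left out belonged to the group not compared, which leaves the fold change as it was. In Atm-/- lymphomas against WT thymus, the calls of Eno2, Gapdh, Ldha, Ldhb, Pdk1, Pdk2, Pfkm and Pgam1 were lost under at least 1 alternative. In Rag2c/c p53-/- lymphomas these were Aldoc, Hk2, Ldha, Pgam1, Pgd and Slc2a1, and between the lymphomas Slc16a3. Leaving out 1 library at a time gave 12 (without WT thymus 1) to 19 (without Atm-/- lymphoma 5) called genes in Atm-/- lymphomas against WT thymus, and 12 (without Rag2c/c p53-/- lymphoma 4) to 17 in Rag2c/c p53-/- lymphomas. With a compared library left out, the median in Atm-/- lymphomas ranged from 0.4002 to 0.441, below the 0.4445 with all libraries. In Rag2c/c p53-/- lymphomas the median ranged from 0.3573 (without WT thymus 2) to 0.5269. Without the shallowest library of each group the median in Atm-/- lymphomas was 0.3297. Between the lymphomas, the count was 0 to 1 with 1 library left out (0 without Atm-/- lymphoma 4 or Rag2c/c p53-/- lymphoma 3 or 4), 0 when only these groups were fitted and 3 without the fold threshold. The median there, which has no test, ranged from -0.048 to 0.108. The gene called without Rag2c/c p53-/- lymphoma 2, or without the shallowest libraries, was Eno2 and not Slc16a3. The cause of these shifts was not tested. No paired analysis was made, because the labels do not pair libraries between groups. Only the WT thymus labels carry replicate numbers, and the lymphomas were numbered here in the order listed. Rounding and depth limit genes of low value such as Aldoc, Hk3 and Eno2.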

Other observations

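Akt1, a kinase that promotes glucose uptake, was listed at 47706 in Rag2c/c p53-/- lymphoma 3 and at 29777 in Rag2c/c p53-/- lymphoma 4, and at 4076 to 6086 in the other 11 libraries. It was not called in any comparison, and it was picked after its values were seen. Slc2a1 was at 1872 and 1940 in these 2 lymphomas and at 1298 to 1462 in the other 3 of the group. Hk2 (737 and 888), Ldha (13966 and 22934) and Slc2a3 (884 and 944) lay within the range of the other 3. Pfkp, Pgam1, Pdk3 and Eno2 lay above that range, as Slc2a1 did. None of this was tested.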
